A study of Mus musculus with 3 samples.

Results

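The cells described here are innate-like T cells from B16-Ova and MC38-Ova tumours, chosen by their own transcripts. Barcodes needed 500 or more genes, and mitochondrial transcripts could not exceed 10% of their UMIs (unique molecular identifiers, each standing for 1 captured RNA molecule). Its larger hashtag had to reach 150 UMIs and 3 times the other hashtag. Among such cells, those with at least 1 UMI of Cd3e, none of Cd4, Foxp3 or Lyz2, at most 1 of Cd8a and Cd8b1 together, and at least 2 of Fcer1g and Tyrobp together were taken. Of 19912 barcodes, 14992 carried 1 hashtag after the filters, and 1205 of those met the rule, 450 with the B16-Ova hashtag and 755 with the MC38-Ova hashtag.

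C57BL/6 mice bore subcutaneous B16-Ova tumours, a melanoma line, or subcutaneous MC38-Ova tumours, a colon carcinoma line, and both lines carry ovalbumin. Tumours were taken on day 14, and T cells were sorted as TCRβ+, CD3+, CD90.2+ and CD11b-. The cells of both tumours were loaded together in 1 droplet capture that read RNA from its 5′ end, 2 hashtags, and tags for PD-1, Tim-3 and the plant lectin L-Pha. The labels name no engineered allele and no treatment in either group, and do not give the number or age of the mice behind each hashtag. Each tumour is therefore 1 pool of cells without a replicate. The hashtags read out as 15-base oligonucleotides, shown because the whole comparison rests on telling them apart.
B16-Ova hashtag: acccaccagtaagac
MC38-Ova hashtag: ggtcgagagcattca

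Innate-like T cells carry a T cell receptor together with receptors and adaptors best known from natural killer (NK) cells. Fcer1g and Tyrobp encode small membrane adaptors that pass signals from activating receptors to kinases, and the Ly49 (Klra) and NKG2 (Klr) families encode receptors for class I and related molecules. Such cells respond readily to cytokines, including type I interferon, whose target genes often carry a short promoter element, the interferon-stimulated response element.

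The sums compared held 2563776 RNA UMIs from B16-Ova and 4801780 from MC38-Ova tumours. The median cell held 4770 UMIs (quartiles 3913 and 6475.25) and 5593 UMIs (4090.5 and 7500), with 1697.5 and 1866 genes. Mitochondrial shares were alike, with medians of 1.94% and 1.79%. The cells' own hashtag had a median of 350.5 and 425 UMIs, and the other hashtag 47 and 59. Expression is given as CPM, the summed UMIs of a gene scaled to 1000000 RNA UMIs of its pool, and a ratio as the MC38-Ova over the B16-Ova value with its exact conditional 95% interval. Intervals cover the counting of molecules only, so a difference between mice, between tumours of 1 kind or between tumour types cannot be told apart, and no test of the tumour type was possible.

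The label was checked against receptor and lineage genes. Transcripts of the T cell receptor complex were abundant in both pools: Cd3d stood at 934 and 1103 CPM in B16-Ova and MC38-Ova cells, and Trbc2 at 209 and 235 CPM. Klrd1, which encodes CD94, stood at 552 and 691 CPM. It was at 518 and 733 CPM in CD8 cells of the same tumours, so it does not set these cells apart from them. Klrb1c, which encodes NK1.1, stood at 136 and 132 CPM, against 5.89 and 18.7 CPM in CD8 cells of the same tumours. Klra8 and Klra4, the activating receptors Ly49H and Ly49D of many NK cells, stood at 0.78 and 0.78 CPM in B16-Ova cells, which is 2 UMIs each, and at 0.21 and 0.62 CPM in MC38-Ova cells. Other NK cell genes stood higher. Ncr1 was at 33.9 and 36.4 CPM, against 1.05 and 5.10 in CD8 cells, and Itga2 at 16.4 and 12.5 CPM, against 3.03 and 6.07. Eomes was at 45.6 and 64.6 CPM, against 59.7 and 36.4 in CD8 cells. Trav11, the invariant alpha segment of natural killer T cells, stood at 3.51 and 1.04 CPM, against 0.17 and 0.14 in CD8 cells. Their factor Zbtb16 stood at 6.63 and 8.12 CPM, against 1.69 and 1.35. The delta chain gene Trdc stood at 2.73 and 5.83 CPM, against 0.41 and 1.88 in CD8 cells. Of the gamma chain genes, Tcrg-C4 stood at 24.6 and 27.5 CPM, against 2.56 and 7.65 in CD8 cells. Tcrg-C2 stood at 16.8 and 17.1 CPM, against 15.2 and 13.5, and Tcrg-C1 at 9.36 and 5.21 CPM, against 1.92 and 2.98. Genes of the T cell receptor complex and NK receptor genes were thus present together. Trav11, Zbtb16 and Trdc stood at low levels that were above those of CD8 cells. How many of the cells are invariant natural killer T, gamma delta T or NK cells was not tested.

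The threshold on the adaptors cuts through a continuum. The 193 cells with exactly 2 adaptor UMIs held 537 CPM of Ly49 transcripts, and the 304 cells just outside, with 1 adaptor UMI, held 465 CPM. The 846 cells with 4 or more held 1078 CPM. On the Cd8 side, 312 cells with 1 UMI of Cd8a and Cd8b1 lay just inside at 894 CPM of Ly49 transcripts, and 123 cells with 2 UMIs lay just outside at 943 CPM.

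Innate-like cells made up a larger share of the cells from MC38-Ova tumours. They were 450 of 6585 hashtag-called B16-Ova cells, 6.83% (Clopper-Pearson 95% interval 6.24 to 7.47), and 755 of 8407 MC38-Ova cells, 8.98% (8.38 to 9.61). The difference was 2.15 percentage points (Newcombe interval 1.28 to 3.01). With each cell thinned to 2000 UMIs before the rule was applied, the shares were 5.62% and 8.30%. The sort set which cells could enter these shares, and a loss of other T cells cannot be told apart from a gain of these.

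Within them, cells with at least 2 UMIs of Ly49 transcripts were 317 of 450 (70.4%, 66.0 to 74.6) in B16-Ova and 620 of 755 (82.1%, 79.2 to 84.8) in MC38-Ova tumours. The difference was 11.7 points (6.71 to 16.7), and after thinning the shares were 39.8% and 53.3%. Among cells whose larger hashtag was at least 10 times the other, the difference was 6.17 points (-3.80 to 16.7), an interval that includes 0, and with 1 Ly49 UMI as the mark it was 6.42 points (2.53 to 10.6). Of the cells with fewer Ly49 UMIs, those with at least 2 UMIs of Tmem176a and Tmem176b numbered 9 and 7, and of the others those with a Klrb1c UMI made up 8.22% and 3.97%. The remaining cells, which met none of these marks, made up 19.3% (15.8 to 23.3) and 13.0% (10.7 to 15.6).

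Of 31053 genes, 6425 had at least 100 UMIs in both sums together and were compared. A gene is called here when its CPM ratio is at least 1.5-fold in either direction, a rule of size and not a test. By this rule 241 genes (3.75%) were higher in MC38-Ova and 112 (1.74%) were higher in B16-Ova cells. At 2-fold the counts were 62 and 27. The median log2 ratio over all compared genes was 0.004, so the 2 sums were centred on each other. In each pool the UMIs of a gene in its top cell, the cell with the most of them, were then taken out. Of the 353 called genes, 307 stayed past the fold, and the others fell short of it. Over all compared genes, 292 were then higher in MC38-Ova and 79 in B16-Ova cells. The B16-Ova pool has fewer cells, so taking out 1 cell tends to lower its sums by more. Values given without top or highest cells keep the pool's total RNA UMIs.

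**Figure D1:**
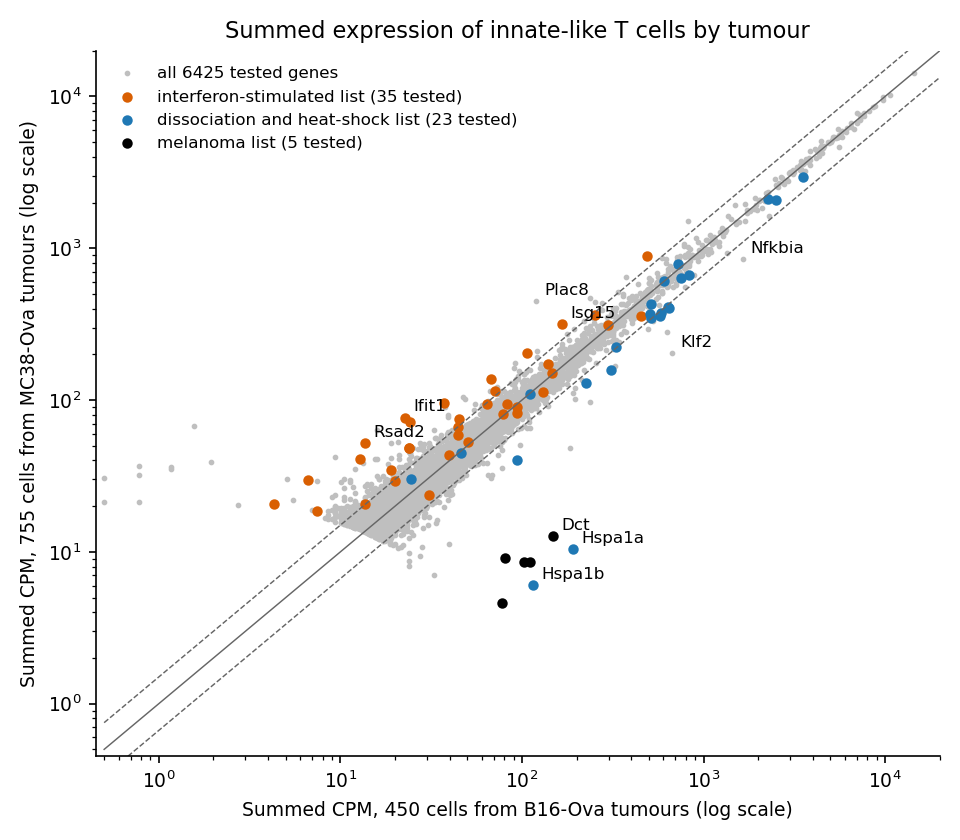
Summed CPM of each compared gene in cells from B16-Ova tumours (x axis) and MC38-Ova tumours (y axis), both on log scales, with the line of equality and dashed lines at 1.5-fold; values below 0.5 CPM are drawn at 0.5. Of 35 interferon-stimulated genes (orange), 30 lie above the line of equality and 5 below it, Hspa1a and Hspa1b lie far below it, and the 5 melanoma genes (black) had most of their B16-Ova UMIs in 1 cell.

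The 12 genes highest in MC38-Ova cells by ratio included 6 of the interferon list: Ifit3b, Oasl1, Rsad2, Ifit1, Oasl2 and Usp18. Ifi214, a member of the interferon-inducible HIN-200 family outside that list, stood at 12.1 and 35.4 CPM (ratio 2.93, 1.99 to 4.44). The others were Plac8, Ecm1, Lilr4b, Klrb1f and the cell cycle gene Ube2c. Ecm1, which encodes a secreted matrix protein, stood at 9.36 and 42.3 CPM, a ratio of 4.52 that was 3.18 without the top cell of each pool. It had 78 and 38 of 203 MC38-Ova UMIs in 2 cells, and without the 4 highest cells of each pool it stood at 6.63 and 15 CPM. Its ratio was 6.55 in the Ly49 set (3.74 to 12.5). In the remaining cells it was 1.10, from 8 and 10 UMIs (0.393 to 3.22). Lilr4b, a receptor of the immunoglobulin superfamily, stood at 13.3 and 38.7 CPM (2.92, 2.02 to 4.34). The ratio of Lilr4b here was 2.17 times that in CD8 cells (1.48 to 3.17).

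The 12 genes lowest by ratio were Hspa1b, Hspa1a, Tyrp1, Dct, Mt1, Klf2, Fdps, Tmem97, Cpsf1, Nfkbiz, Hsph1 and Dusp2. Tyrp1 and Dct, pigment genes of melanocytes, do not describe T cells: 1 cell held 228 of 264 Tyrp1 UMIs and 345 of 381 Dct UMIs in the B16-Ova pool. Mt1, a metallothionein, had 393 of its 470 B16-Ova UMIs in 1 cell, and its ratio of 0.265 was 1.03 without the top cells. Fdps and Tmem97, genes of the sterol pathway, stood at 23.8 and 8.12 CPM and at 27.3 and 9.37 CPM. Their ratios of 0.341 (0.222 to 0.519) and 0.343 (0.231 to 0.506) were 0.409 and 0.479 without the top cells. Cpsf1, a subunit of the polyadenylation machinery, stood at 23.8 and 9.79 CPM (0.411, 0.275 to 0.612).

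Interferon-stimulated genes were the broadest group that differed. Of 35 compared members of a 36-gene list, 18 were at least 1.5-fold higher in MC38-Ova cells and none was lower, against a background of 3.75% and 1.74% over all genes. At 2-fold 11 were higher, against 0.965% of all genes. The list's median log2 ratio was 0.59, beside 0.004 over all genes. The median was 0.69 within the Ly49 set and 0.87 within the remaining cells, so both subsets showed the same direction.

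Ifit1 (chromosome 19, 34640871 to 34650009, plus strand, GRCm38), whose protein binds foreign RNA ends, stood at 22.6 CPM (Poisson interval 17.2 to 29.2) in B16-Ova and 76.6 CPM (69.0 to 84.9) in MC38-Ova cells. The ratio was 3.39 (2.56 to 4.55), and the intervals of the levels did not overlap. Rsad2 (chromosome 12, 26442746 to 26456452, minus strand), which encodes the antiviral enzyme viperin, stood at 13.7 CPM (9.51 to 19.0) and 52.1 CPM (45.8 to 58.9), a ratio of 3.81 (2.67 to 5.6). Usp18 (chromosome 6, 121245906 to 121270917, plus strand), a protease that removes ISG15 and damps the interferon receptor, stood at 24.2 and 71.6 CPM (2.96, 2.25 to 3.95). All 3 were low in both pools, and their intervals did not overlap. Among the 105 and 156 cells whose larger hashtag was at least 10 times the other, Usp18 had a ratio of 1.43 and Ifit1 one of 2.19.

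Other members spanned a wide range of levels. Isg15 (chromosome 4, 156199424 to 156200818, minus strand), a ubiquitin-like modifier, stood at 165 CPM (150 to 182) and 317 CPM (301 to 333), a ratio of 1.92 (1.72 to 2.14). Irf7, the transcription factor that amplifies interferon production, stood at 106 and 205 CPM (1.93, 1.68 to 2.21). Ifi27l2a stood at 487 and 886 CPM (1.82, 1.71 to 1.94). Oasl2 and Oasl1, relatives of the 2′-5′ oligoadenylate synthetases, had ratios of 3.15 (2.17 to 4.71) and 4.46 (2.69 to 7.87). Ifit3 had a ratio of 2.56 (2.05 to 3.23) and Ifit3b one of 4.81 (2.57 to 9.94), and reads of this near-identical pair may be split between them.

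In a second group within the same list, most members stood near or below 1. It was set apart after the values were seen, by the family its members belong to. The guanylate-binding proteins Gbp2, Gbp4, Gbp5 and Gbp7 had ratios of 0.959, 0.880, 0.770 and 0.868, and the immunity-related GTPases Igtp, Ifi47 and Irgm1 had ratios of 1.03, 1.06 and 1.33. Members outside these families also stood near 1, such as Irf9 at 50.7 and 53.3 CPM. Parp14 stood at 78.4 and 81.0 CPM, and Slfn8 at 39.8 and 43.5 CPM. A ratio near 1 was therefore not limited to the GTPases. The GTPases named are classical targets of interferon gamma. Ifng itself stood at 126 and 130 CPM in these cells (1.03, 0.896 to 1.18), and its ratio in CD8 cells, given below, was higher. Ifng transcripts of a cell do not measure the interferon it met. Which interferon acted in either tumour was not tested.

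The promoters of members of the list were read from RefSeq (GRCm38.p6) as the 250 bases before each gene's start and searched on both strands for GAAANNGAAA, a core of the interferon-stimulated response element (TTTCNNTTTC on the other strand). The element was found in 936 of 27025 genes with a promoter (3.46%). It was found in 9 of 14 members past the fold (64.3%) and in 7 of 13 members not past it (53.8%), with 8 members having no promoter entry. The letters in this window therefore occurred in both groups of members, and Gbp2, Gbp5, Gbp7, Igtp and Irgm1 held them while Irf7, Ifit2 and Oasl2 did not. The promoters of Ifit1, Rsad2 and Isg15 are shown because these genes carry the comparison, each 5′ to 3′ in the gene's direction with the matched bases in capitals.
Ifit1, chr19:34640639-34640888, plus strand: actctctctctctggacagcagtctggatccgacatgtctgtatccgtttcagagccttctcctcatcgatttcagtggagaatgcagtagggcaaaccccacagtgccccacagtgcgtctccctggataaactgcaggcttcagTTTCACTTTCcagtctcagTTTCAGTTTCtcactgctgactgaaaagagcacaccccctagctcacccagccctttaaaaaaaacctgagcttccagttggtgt
Rsad2, chr12:26456453-26456702, minus strand: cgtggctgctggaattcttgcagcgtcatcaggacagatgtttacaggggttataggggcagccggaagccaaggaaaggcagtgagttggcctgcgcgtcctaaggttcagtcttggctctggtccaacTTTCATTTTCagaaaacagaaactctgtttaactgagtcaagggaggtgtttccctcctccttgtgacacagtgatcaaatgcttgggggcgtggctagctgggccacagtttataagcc
Isg15, chr4:156200819-156201068, minus strand: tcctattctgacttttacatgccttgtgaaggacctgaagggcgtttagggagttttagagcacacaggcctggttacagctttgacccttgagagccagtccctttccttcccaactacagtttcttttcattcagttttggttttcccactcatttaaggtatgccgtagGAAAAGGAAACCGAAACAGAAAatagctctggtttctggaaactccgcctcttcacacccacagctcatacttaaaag
Ifit1 held 2 matches, beginning 104 and 85 bases before the start. Rsad2 held 1, beginning 120 bases before it, and Isg15 held 3 overlapping ones, the first beginning 78 bases before it.

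Per cell, the shift was modest at the centre and larger in the tail. With each cell thinned to 2000 UMIs, which left out 6 B16-Ova and 7 MC38-Ova cells with fewer, the median cell held 5 UMIs of the list (interval 5 to 6) in B16-Ova and 7 (6 to 7) in MC38-Ova tumours. Cells with 20 or more such UMIs were 4.73% (2.95 to 7.14) and 11% (8.81 to 13.4). Cells with at least 10 were 20.9% (17.3 to 25) and 32.0% (28.6 to 35.4). The distributions overlapped over most of their range.

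**Figure D2:**
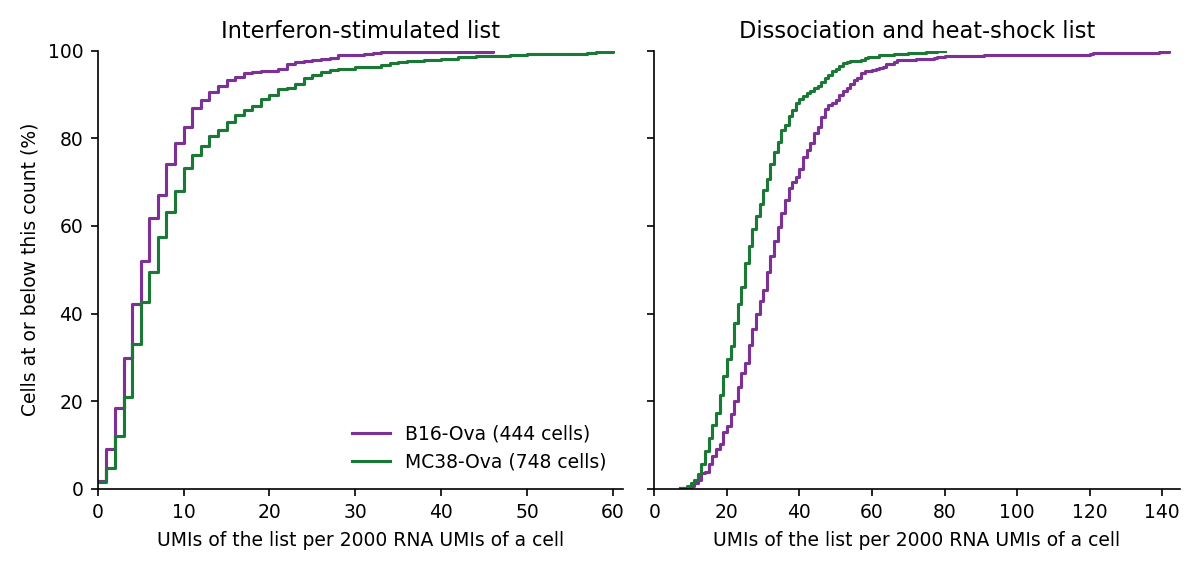
Cumulative share of cells (y axis, percent) by UMIs of a gene list per 2000 RNA UMIs of a cell (x axis), for 444 cells from B16-Ova (purple) and 748 cells from MC38-Ova tumours (green). The interferon-stimulated list (left) sits further right in MC38-Ova cells, with medians of 5 and 7 UMIs, and the dissociation and heat-shock list (right) sits further left, with medians of 32 and 25 UMIs.

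The same list was examined in the other T cells of the same pools. Conventional CD4 cells (Cd4 without Foxp3) numbered 700 and 692, Treg cells (Cd4 with Foxp3) 496 and 555, and CD8 cells (at least 2 UMIs of Cd8a and Cd8b1) 1760 and 2486. In conventional CD4 cells 9 of 34 compared members were past the fold in MC38-Ova (background 3.75%) with a median log2 ratio of 0.31. In Treg cells it was 26 of 35 (background 4.39%, median 0.96), and in CD8 cells 22 of 35 (background 5.45%, median 0.87). None was lower in any of them. The ratio of Ifit1 in innate-like cells was 1.86 times that in conventional CD4 cells (1.36 to 2.56), 1.09 times that in Treg cells (0.798 to 1.5) and 1.31 times that in CD8 cells (0.974 to 1.75). For Usp18 the corresponding values were 2.09 (1.48 to 2.95), 0.557 (0.391 to 0.791) and 1.2 (0.898 to 1.61). Interferon-stimulated genes were thus higher in MC38-Ova tumours in all 4 classes, and Ifit1 and Usp18 differed by more in innate-like than in conventional CD4 cells, beyond counting error. All classes come from the same pools and are not independent.

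**Figure D3:**
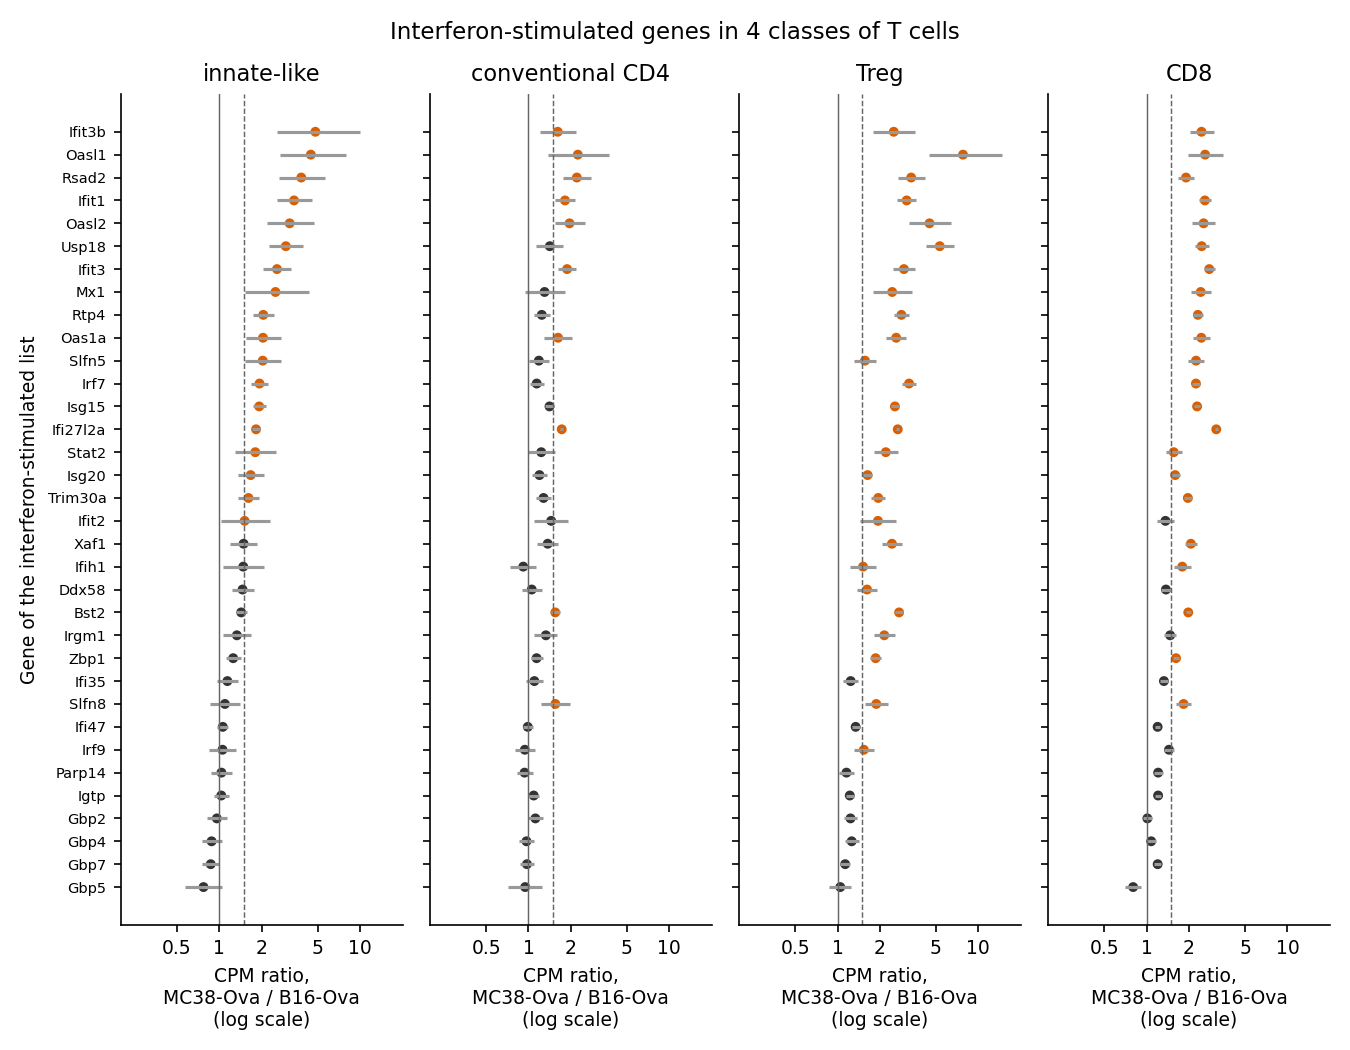
MC38-Ova over B16-Ova CPM ratio (x axis, log scale) of compared interferon-stimulated genes, all but 1 of the list (y axis, ordered by the ratio in innate-like cells) in 4 classes of T cells, with exact conditional 95% intervals; orange points are past 1.5-fold, and a gene too sparse for a finite interval is not drawn. In innate-like cells the list runs from Gbp5 at 0.770 to Ifit3b at 4.81.

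Heat-shock and dissociation-response genes went the other way. All 23 members of the list were compared, and 9 were at least 1.5-fold higher in B16-Ova cells (background 1.74%) while none was higher in MC38-Ova cells. The median log2 ratio was -0.46. The inducible HSP70 genes Hspa1a (chromosome 17, 34969190 to 34972156, minus strand) and Hspa1b (chromosome 17, 34956436 to 34959238, minus strand) stood furthest apart. Hspa1a stood at 192 CPM (175 to 209) in B16-Ova and 10.4 CPM (7.73 to 13.7) in MC38-Ova cells, a ratio of 0.054 (0.040 to 0.073). Hspa1b stood at 115 CPM (102 to 129) and 6.04 CPM (4.04 to 8.67), a ratio of 0.053 (0.035 to 0.077). Their upstream 250 bases differ at 3 positions in RefSeq, and reads may be split between the 2 copies.

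The HSP70 transcripts were concentrated in few cells. Of 785 UMIs of both genes in B16-Ova cells, the 4 highest cells held 165, 99, 70 and 58, and 393 lay in all the others. In MC38-Ova cells 79 UMIs were seen in all. Without the 4 highest cells of each pool, the B16-Ova cells still held 153 CPM and the MC38-Ova cells 12.5 CPM of both genes together.

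Other chaperones differed by less. Hsph1, an HSP110 co-chaperone, stood at 94.4 and 40.4 CPM (0.428, 0.353 to 0.519), and Dnajb1, an HSP40, at 224 and 130 CPM (0.579, 0.517 to 0.650). Hsp90aa1, the inducible HSP90, stood at 573 and 359 CPM (0.627, 0.584 to 0.672). Hspd1, a mitochondrial chaperonin, had a ratio of 0.510 that was 0.654 without the top cells. The early-response genes of the list split: Zfp36, Btg2 and Dusp1 had ratios of 0.626, 0.640 and 0.643, Jun one of 0.682, and Fos and Fosb 1.09 and 0.991. Hspa5, the chaperone of the endoplasmic reticulum, stood at 605 and 610 CPM. Tumours were dissociated before the sort, and whether the 2 pools were handled alike is not stated. Handling and tumour type therefore cannot be told apart for this list or for any other ratio between the pools. That includes the ratios of Klf2, Dusp2 and Nfkbid given below.

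In the other classes the HSP70 genes were also lower in MC38-Ova tumours, with Hspa1a ratios of 0.165, 0.221 and 0.121 in conventional CD4, Treg and CD8 cells. Counts for the list differed: 6 lower and 2 higher in conventional CD4 cells (backgrounds 2.6% and 3.75%), 3 and 3 in Treg cells (4.54% and 4.39%), and 3 and 4 in CD8 cells (5.73% and 5.45%). The medians were -0.32, -0.16 and 0.01. Zfp36, for example, had a ratio of 1.23 in CD8 cells, and its ratio in innate-like cells was 0.507 times that (0.471 to 0.547).

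Klf2 (chromosome 8, 72319033 to 72321656, plus strand), the transcription factor that maintains S1pr1 and recirculation, was among the 12 genes with the lowest ratios, and in B16-Ova cells it had the highest level of them. It stood at 669 CPM (637 to 701) in B16-Ova and 205 CPM (192 to 218) in MC38-Ova cells, a ratio of 0.306 (0.283 to 0.331). The ratio was 0.311 within the Ly49 set and 0.418 within the remaining cells. In conventional CD4, Treg and CD8 cells it was 0.440, 0.923 and 0.635. The innate-like ratio was 0.696 times the conventional CD4 one (0.623 to 0.777), 0.332 times the Treg one (0.295 to 0.373) and 0.482 times the CD8 one (0.441 to 0.526), so Klf2 differed between the tumours by more in these cells than in each of the others, beyond counting error. S1pr1, the egress receptor, stood at 76.1 and 49.6 CPM (0.652, 0.537 to 0.792), against ratios of 1.46 in Treg and 1.45 in CD8 cells. Its ratio in conventional CD4 cells is not reported here.

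Of 11 chemokine and egress receptors, 3 were higher in B16-Ova cells (background 1.74%), and the median log2 ratio was -0.28. The median was -0.40 in conventional CD4, 0.01 in Treg and 0.21 in CD8 cells. In innate-like cells Cxcr4, the receptor for CXCL12, stood at 97.1 and 50.8 CPM (0.523, 0.437 to 0.627), and Ccr8 at 25.7 and 15.6 CPM. Among 26 lineage transcription factors only Klf2, Zeb2 and Maf passed the fold, all higher in B16-Ova cells (background 1.74%). Zeb2, a factor of terminal effector differentiation, stood at 22.2 and 11 CPM (0.496, 0.335 to 0.735), and Maf at 29.3 and 17.9 CPM.

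Plac8 (chromosome 5, 100553725 to 100572245, minus strand), which encodes a small cysteine-rich protein, stood at 119 CPM (106 to 134) in B16-Ova and 448 CPM (429 to 467) in MC38-Ova cells. Its ratio of 3.75 (3.33 to 4.24) was 3.76 in the Ly49 set and 2.72 in the remaining cells. In conventional CD4, Treg and CD8 cells the ratio was 3.48, 2.73 and 1.21, and the innate-like ratio was 3.1 times the CD8 one (2.74 to 3.5). Plac8 was thus higher in MC38-Ova tumours in innate-like and both kinds of CD4 cells, and did not pass the fold in CD8 cells.

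The Ly49 receptors, which partly define the sets above, had 6 compared members, of which 2 passed the fold in MC38-Ova cells (background 3.75%) and none in B16-Ova cells. The summed level of all 11 genes of the list was 749 and 1052 CPM, a ratio of 1.40 (1.33 to 1.48). Klra7 (chromosome 6, 130218605 to 130233322, minus strand), which encodes the inhibitory receptor Ly49G, stood at 339 CPM (316 to 362) and 518 CPM (498 to 538), a ratio of 1.53 (1.41 to 1.65). Klra1 (chromosome 6, 130363917 to 130386874, minus strand), which encodes Ly49A, stood at 193 and 292 CPM (1.51, 1.36 to 1.68). Klra6 had a ratio of 1.44, and Klra3, Klra5 and Klra9 ratios of 0.957, 0.977 and 0.830. Within the Ly49 set Klra7 and Klra1 had ratios of 1.34 and 1.36 and did not pass the fold, and the larger share of that set in MC38-Ova tumours moved with the pooled values. Without the 1 B16-Ova and 4 MC38-Ova cells rich in melanoma or collagen genes, Klra7 stood at 1.48 and Klra1 at 1.47, so both calls lie at the edge of the fold. Ly49 genes are near-identical in sequence, so reads may be split among them. The list's median log2 ratio was 0.25 in innate-like cells and larger in the other classes. In CD8 cells 5 of 6 compared members were higher in MC38-Ova tumours (background 5.45%, median 1.39). In conventional CD4 cells it was 3 of 3 (background 3.75%, median 0.76), and in Treg cells 2 of 2 (background 4.39%, median 0.86). Higher Ly49 transcripts in MC38-Ova tumours were thus not particular to innate-like cells.

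Of 14 compared NKG2, CD94 and NKR-P1 receptors, Klrb1a and Klrb1f passed the fold, both higher in MC38-Ova cells (background 3.75%). Klrb1a had a ratio of 2.85 (1.88 to 4.47) and Klrb1f stood at 10.1 and 28.9 CPM (2.85, 1.87 to 4.52), with the same caution on shared reads. Klrd1 had a ratio of 1.25, Klrk1, which encodes the activating receptor NKG2D, stood at 376 and 375 CPM, and Klrb1c had a ratio of 0.968. The adaptors that the rule used stood at 825 and 1022 CPM for Fcer1g and at 252 and 440 CPM for Tyrobp, which are given as a description only. Among the genes of adaptors and proximal receptor signalling that the rule did not use, only Sh2d1a, which encodes the adaptor SAP, passed the fold (background 3.75%), at 96.7 and 155 CPM.

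Granzyme B was the only 1 of 13 compared cytotoxic genes past the fold, a count near the background of 3.75%. Gzmb stood at 372 CPM (349 to 396) and 650 CPM (628 to 674), a ratio of 1.75 (1.63 to 1.88), and the ratio was 1.99, 3.65 and 1.81 in conventional CD4, Treg and CD8 cells. With each cell counting the same, or thinned to 2000 UMIs, it was 1.33 and 1.27. Gzma had a ratio of 0.912, Prf1, which encodes perforin, at 45.6 and 43.7 CPM, and Nkg7 at 1087 and 1229 CPM. Prf1 had ratios of 0.547, 0.515 and 0.490 in conventional CD4, Treg and CD8 cells, and the innate-like ratio of 0.958 (0.761 to 1.21) was 1.96 times the CD8 one (1.55 to 2.46). Perforin transcripts were thus lower in MC38-Ova tumours in the other classes while the innate-like level was about the same in both pools.

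None of 8 compared cytokine genes and none of 23 genes of the IL-2, IL-7, IL-15, IL-12 and IL-18 receptor axis passed the fold in either direction (background 3.75% and 1.74%), with medians of -0.02 and 0.03 on the log2 scale. Both counts are near the background. Ifng had a ratio of 2.71 in CD8 cells against 1.03 here, and the innate-like ratio was 0.378 times the CD8 one (0.329 to 0.434). Among chemokine ligands, Xcl1, which attracts cross-presenting dendritic cells, stood at 795 and 555 CPM (0.698, 0.659 to 0.740; 0.814 without the top cells), and Ccl5 at 5551 and 4669 CPM (0.841, 0.824 to 0.859). Cxcl9 passed the fold with 320 of its 326 MC38-Ova UMIs in 1 cell, and had a ratio of 1.07 without the top cells.

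**Figure D4:**
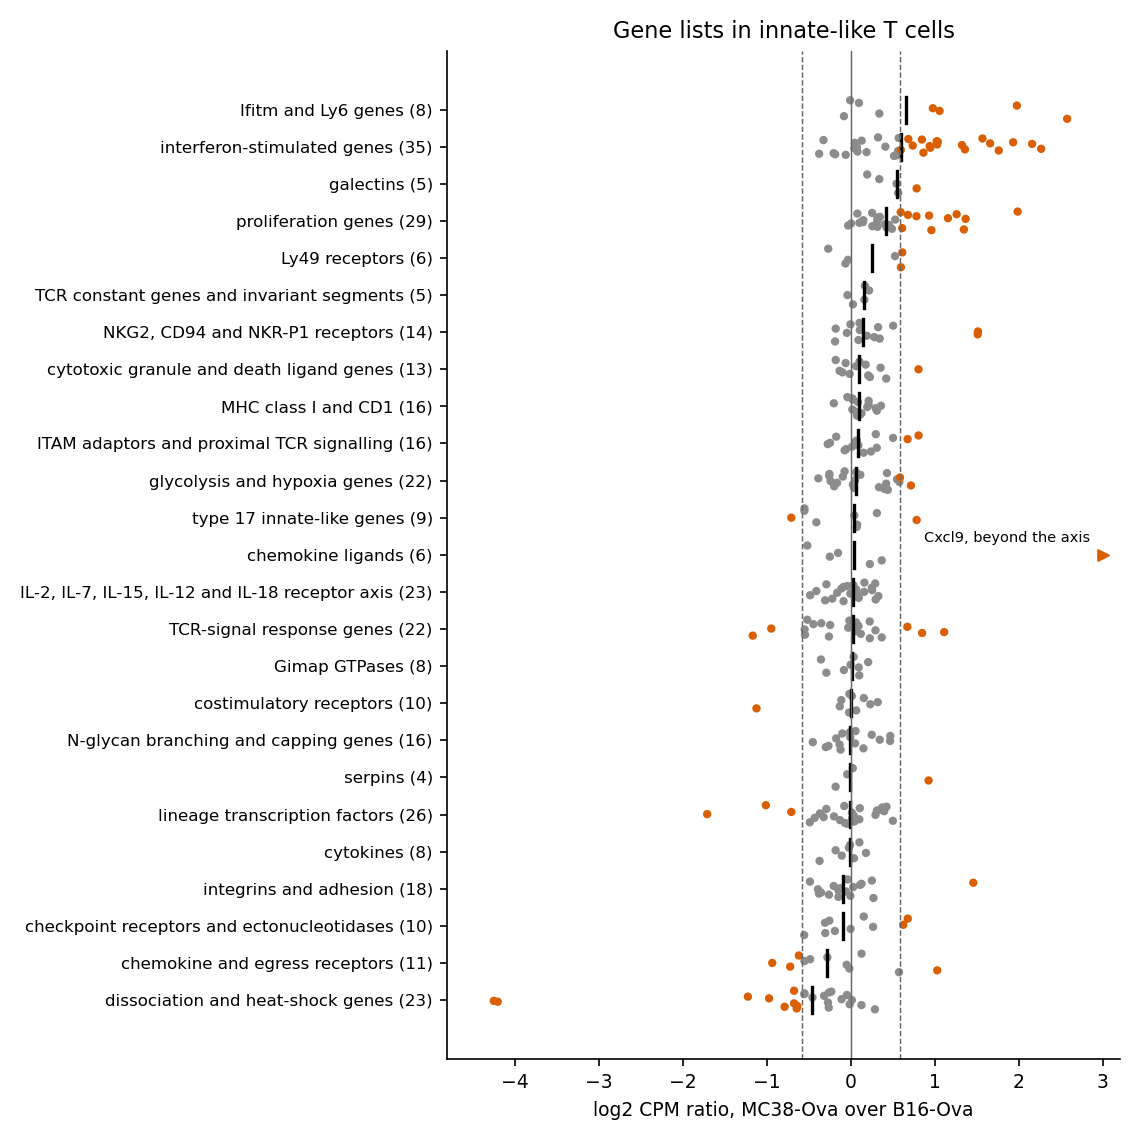
log2 MC38-Ova over B16-Ova CPM ratio (x axis) of the compared members of each gene list (y axis, number of compared genes in brackets); orange points are past 1.5-fold (dashed lines), the black bar is the list's median, and the arrowhead is Cxcl9, beyond the axis. Most lists centre near 0, with the interferon list at 0.59 and the dissociation and heat-shock list at -0.46.

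Genes that respond to T cell receptor signals went in both directions: of 22 compared, 3 were higher in MC38-Ova cells and 2 in B16-Ova cells (backgrounds 3.75% and 1.74%), with a median of 0.02. Nr4a2, an orphan nuclear receptor, stood at 275 and 438 CPM (1.59, 1.46 to 1.74), and Egr1 at 90.9 and 164 CPM (1.80, 1.55 to 2.09). The Nr4a2 ratio was 1.88 times that in CD8 cells (1.71 to 2.06). Egr2 stood at 8.58 and 18.5 CPM. Dusp2, a phosphatase that shuts off MAP kinases, stood at 626 CPM (596 to 657) and 279 CPM (264 to 294), a ratio of 0.445 (0.414 to 0.479). Nfkbid stood at 195 and 101 CPM (0.519, 0.457 to 0.589), and in CD8 cells it had a ratio of 1.66.

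Of 10 compared checkpoint receptors and ectonucleotidases, Tigit and Lag3 passed the fold, both higher in MC38-Ova cells (background 3.75%). Tigit stood at 121 and 193 CPM (1.6, 1.41 to 1.83) and Lag3 at 31.2 and 48.1 CPM (1.54, 1.19 to 2.01). The Tigit ratio was 0.919 in Treg and 0.802 in CD8 cells, and the innate-like ratio was 2.00 times the CD8 one (1.75 to 2.28). The Tigit ratio in conventional CD4 cells is not reported here. Pdcd1, which encodes PD-1, stood at 42.5 and 35.6 CPM (0.838, 0.655 to 1.08). Counts near the background came from the next lists. Of 18 integrins and adhesion genes only Itgb3 passed, at 19.1 and 52.5 CPM (2.75, 2.02 to 3.81). Of 10 costimulatory receptors only Cd81 passed, with 44 of its 86 B16-Ova UMIs in 1 cell and a ratio of 0.84 without the top cells.

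Ly6a, the stem cell antigen Sca-1, stood at 238 and 469 CPM (1.97, 1.80 to 2.16), and Ifitm3, which restricts viral entry, at 48.8 and 101 CPM (2.08, 1.71 to 2.55). They were 2 of 4 members of the 8 compared Ifitm and Ly6 genes past the fold (background 3.75%). All but Ly6a leaned on few cells. Ifitm3 had 130 and 98 of 487 MC38-Ova UMIs in 2 cells, and without the 4 highest cells of each pool it stood at 29.6 and 43.9 CPM. Ifitm1 had 76 of 145 MC38-Ova UMIs in 1 cell, and Ly6c1 106 of 140. The Ifitm3 ratio was 4.40, 6.78 and 3.23 in conventional CD4, Treg and CD8 cells. Of 5 galectins 1 passed (background 3.75%), Lgals3, at 66.3 and 114 CPM (1.72, 1.45 to 2.06), and Lgals1 stood at 587 and 868 CPM (1.48). Of 22 glycolysis and hypoxia genes Ero1l (1.64) and Pfkp (1.5) passed (background 3.75%), with a median log2 ratio of 0.06. In this list 1 B16-Ova cell held 4934 of 18729 UMIs. Without the top cell of each pool for each gene, 8 of the 22 were higher in MC38-Ova cells, beside 292 of 6425 over all genes, and the median was 0.46.

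Proliferation genes were higher in MC38-Ova cells: 11 of 29 compared members passed the fold (background 3.75%), none was lower, and the median log2 ratio was 0.42. Mki67, the Ki-67 antigen, stood at 20.7 CPM (15.5 to 27.0) and 53.3 CPM (47.0 to 60.3), a ratio of 2.58 (1.91 to 3.54). Stmn1 stood at 92.1 and 176 CPM, and Pclaf, a PCNA partner, at 47.2 and 105 CPM. Top2a stood at 37.8 and 90.6 CPM (2.39, 1.92 to 3.02). With cells thinned to 2000 UMIs neither passed the fold, with ratios of 1.48 for Mki67 and 0.983 for Top2a. Ube2c had 168 of its 304 MC38-Ova UMIs in 1 cell, and its ratio of 3.96 was 2.27 without the top cells.

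Few cells carried these transcripts. Cells with at least 2 UMIs of Mki67, Top2a, Birc5, Ube2c and Ccna2 together were 30 of 450 (6.67%, 4.54 to 9.38) and 88 of 755 (11.7%, 9.45 to 14.2). With cells thinned to 2000 UMIs they were 8 of 444 (1.80%) and 27 of 748 (3.61%), a difference of 1.81 points whose interval ran from -0.237 to 3.63. The median cell held 5 UMIs of the list per 2000 in both pools. The list's median log2 ratio was 0.50 in the Ly49 set and -0.39 in the remaining cells. The latter were 87 and 98 cells, and members without a UMI in a pool were left out of the median. Counts there could be very low, such as 4 and 1 UMIs of Ube2c. In CD8 cells 21 of 30 members were higher in B16-Ova tumours (background 5.73%, median -0.65), and in Treg cells 14 of 30 (background 4.54%, median -0.56). In conventional CD4 cells 1 of 29 members was higher in MC38-Ova tumours (background 3.75%, median 0.01). For Mki67 the innate-like ratio was 4.12 times that of CD8 cells (3.04 to 5.59).

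Genes of N-glycan branching and capping bear on the study's lectin readout. None of 16 compared passed the fold, beside a background of 3.75% and 1.74%, so the count is near the background. Mgat5, whose product makes the branch that L-Pha binds, stood at 34.7 CPM (27.9 to 42.7) and 34.6 CPM (29.5 to 40.2), a ratio of 0.996 (0.765 to 1.30). Among lists of other functions, none of 16 class I and CD1 genes and none of 8 Gimap GTPases passed, counts that are also near the background. These counts hold for genes with at least 100 UMIs, and the width of the Mgat5 interval leaves a difference of up to 1.30-fold within counting error.

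L-Pha binding was read on the surface as UMIs of the anti-biotin tag. The median was 290.5 UMIs (279 to 306) in B16-Ova and 358 UMIs (345 to 369) in MC38-Ova cells, a ratio of 1.23. The ratio was smaller against other counts of the same cells. Per 1000 RNA UMIs it was 1.11. Per 100 UMIs of the cell's own hashtag the medians were 81.8 and 81.3, a ratio of 0.995. The L-Pha difference was therefore not kept when the count was set against the hashtag of the same cells. The own hashtag is a different oligonucleotide in each pool, so this scale is not shared and cannot settle whether L-Pha binding differs. In CD8 cells the medians were 481 and 356, and in Treg cells 680 and 575, lower in MC38-Ova tumours, while in conventional CD4 cells they were 245.5 and 254.5. The PD-1 tag had a median of 14 UMIs in both pools, and the Tim-3 tag 19 and 18. A capture without the lectin was not used here, so the level of these tags on cells that bind none is unknown.

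**Figure D5:**
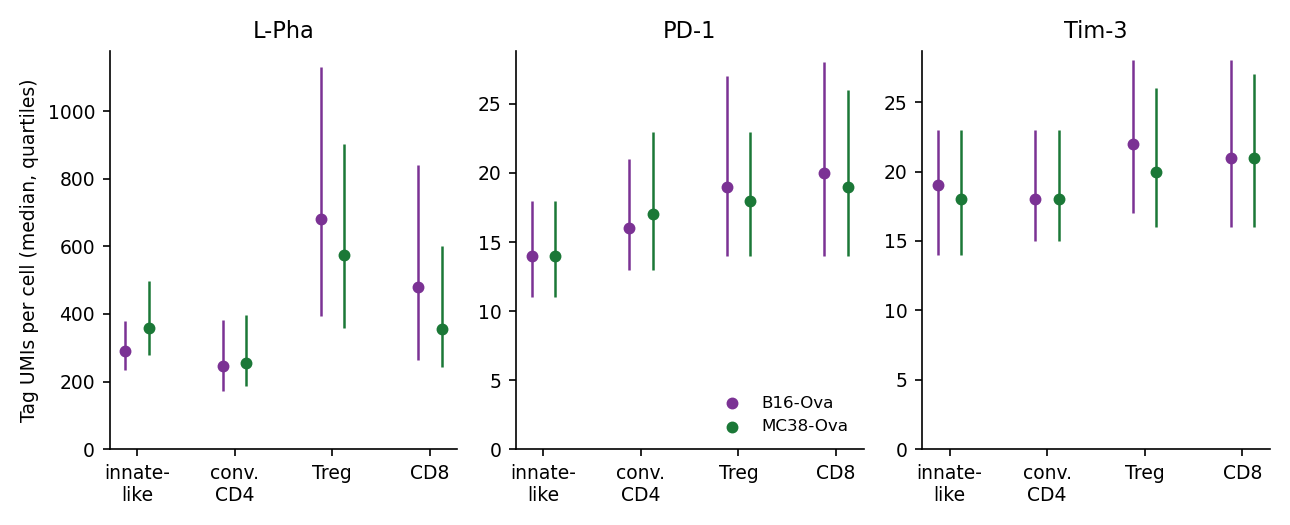
Median UMIs per cell (points) and quartiles (lines) of the L-Pha, PD-1 and Tim-3 tags in 4 classes of T cells (x axis) from B16-Ova (purple) and MC38-Ova (green) tumours; y axes start at 0. L-Pha is higher in MC38-Ova innate-like cells (358 against 290.5) and lower in MC38-Ova CD8 cells (356 against 481).

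T cell receptor segments in the RNA library showed broad use in both pools. Of 19 compared Trbv segments, the most used in B16-Ova cells were Trbv12-2 (11.9% of Trbv UMIs), Trbv13-2 (11.6%) and Trbv1 (10.6%), which took 9.58%, 8.30% and 8.24% in MC38-Ova cells. A clone of many cells gives UMIs from each of them, so these are not shares of clones. Of the 19, 5 passed the fold in MC38-Ova cells (background 3.75%): Trbv26, Trbv20, Trbv13-3, Trbv2 and Trbv31. Their ratios were 2.63, 1.84, 1.72, 1.68 and 1.58. In B16-Ova cells 1 passed (background 1.74%), Trbv14 at 0.585. None of 7 compared Trav segments passed, a count near the background.

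Markers of other cells were summed over 13 lists. The 12 macrophage genes stood at 48.8 and 27.1 CPM, and none reached 100 UMIs. The melanoma list stood at 1422 UMIs (555 CPM) in B16-Ova and 240 UMIs in MC38-Ova cells, with 1279 of the former in 1 cell. The fibroblast and endothelial list stood at 85 and 186 CPM, with 681 of 891 MC38-Ova UMIs in 1 cell. In droplet data such UMIs can come from free RNA or from a second cell in the droplet, and their part in the results was not tested. Leaving out the same 1 and 4 cells rich in melanoma or collagen genes left 17 interferon genes higher and 9 heat-shock genes lower. The number of barcodes with both hashtags, 2388, implies doublets within a pool at 14.2% of B16-Ova and 18.1% of MC38-Ova cells. Removing that many cells by the highest Scrublet scores, a doublet score from simulated cell pairs, took out 16 and 45 innate-like cells.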

How the data were processed

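RNA and tags of 1 droplet capture were analysed in 2 libraries; the receptor-sequence table was not analysed here. Per the submitters' processing notes the tools were Cell Ranger 3.1.0, R 3.6.1 and Seurat 3.1.0 with build mm10, and the annotation release is not given in the sources used here. The authors deposited raw UMI counts per gene, tag and barcode, in whole numbers. From these, cells were chosen by the stated rule, counts were summed per hashtag, and CPM ratios were computed with exact conditional 95% intervals (numpy 2.4.6, scipy 1.17.1). Ratios and thinning were tested on simulated data. Genes with at least 100 UMIs in both sums together were compared. With 1 pool per tumour no p-value was computed, and sums held 2563776 and 4801780 UMIs. Named genes were the 12 highest and 12 lowest ratios (at least 20 CPM and 5% of cells in the higher pool, without rule genes, segments, ribosomal, mitochondrial and unnamed genes) and, from each list, up to 4 members past the fold each way and its defining members. The cells and lists were chosen with earlier results of these data known. Gene positions come from GENCODE vM21, in which 30934 of 31053 gene IDs were found. Doublets were scored with Scrublet (scanpy 1.11.5) but kept in the sums. In all, 14 alternatives were tried for the ratios. Results for some genes are not reported here.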

Additional observations from a re-analysis of the deposited data

Results flagged for a closer look

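The proliferation genes had medians of opposite sign in different T cells of the same tumours. Their median log2 ratio of MC38-Ova over B16-Ova was 0.42 in innate-like cells, 0.01 in conventional CD4 cells, -0.65 in CD8 cells and -0.56 in Treg cells. Within innate-like cells it was 0.50 in the Ly49 set and -0.39 in the remaining cells, which were 87 and 98 cells with low counts of some members. These differences were not tested, since each tumour is 1 pool.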

How the results depend on the processing

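Each ratio rests on 1 pool per tumour, so no setting measures the spread between mice. The counts of 241 and 112 genes past 1.5-fold became 91 and 52 with cells thinned to 2000 UMIs, 124 and 70 with a hashtag ratio of 10, 640 and 434 with a minimum of 30 UMIs, 67 and 42 with a minimum of 300 UMIs, and 62 and 27 at 2-fold. Thinning and the stricter hashtag leave fewer genes to compare, and low counts widen the ratios. The Ly49 share difference of 11.7 points was 6.17 with the hashtag ratio of 10 and 6.42 with 1 Ly49 UMI. The L-Pha ratio of 1.23 was 1.11 per RNA UMI, 1.10 in the remaining cells, 0.995 per hashtag UMI and 0.856 in the 9 and 7 Tmem176 cells. The PD-1 ratio of 1.0 was 0.856 per RNA UMI, 0.845 per hashtag UMI and 1.42 in the Tmem176 cells. The Tim-3 ratio of 0.947 was 0.895 and 0.847 per RNA and hashtag UMI, 0.810 in the Klrb1c cells and 0.9 in the remaining cells. Of 81 named genes past the fold, 63 stayed past it after thinning, 66 with each cell counting the same and 75 without the top cell of each pool. With the hashtag ratio of 10, 57 of 79 did. The ratio of Dct turned to 1.53 with the hashtag ratio of 10 and 1.00 with at least 4 adaptor UMIs, Ifit2 to 0.926 with that hashtag ratio and Top2a to 0.983 after thinning. Mt1 turned to 2.19, 1.57, 1.95, 2.18 and 1.03 with the hashtag ratio of 10, no Cd8 UMI, at least 4 adaptor UMIs, no macrophage UMI and without the top cells. Cd81 turned to 1.18, 1.59, 1.05 and 1.93 without the deepest 5% of cells, with the hashtag ratio of 10, with no Cd8 UMI and with at least 4 adaptor UMIs. Cxcl9 turned to 0.785 without the deepest cells and 0.520 without cells rich in melanoma or collagen genes, which also turned Ly6c1 to 0.931. The cause was not tested. The settings that leave out top cells, melanoma- or collagen-rich cells or high Scrublet scores were chosen after seeing the data. No paired analysis was possible because each tumour is 1 pool.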

Other observations

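The values of 4 genes outside the lists' accounts are given here; they were picked after their values were seen, for being lower in innate-like cells from MC38-Ova tumours, and stand for no gene group. Nfkbia, which encodes the inhibitor IκBα, stood at 1640 CPM in B16-Ova and 846 CPM in MC38-Ova cells, a ratio of 0.516 (0.494 to 0.538). Its ratio was 0.710, 0.997 and 1.01 in conventional CD4, Treg and CD8 cells. Nfkbiz, which encodes a nuclear IκB protein, stood at 237 and 97.7 CPM (0.412, 0.364 to 0.465), with ratios of 0.767, 1.04 and 1.39 in those classes. Tnfaip3, which encodes the ubiquitin-editing enzyme A20, stood at 613 and 387 CPM (0.631), with ratios of 0.623, 0.876 and 1.0. Tsc22d3, a glucocorticoid-induced gene, stood at 324 and 168 CPM (0.518), with ratios of 0.608, 0.840 and 0.825. The part of tissue dissociation in these values was not tested.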
